A study of Rattus norvegicus with 8 samples.

Results

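The AKR1C genes encode small cytosolic enzymes of the aldo-keto reductase superfamily that use NADPH to reduce ketone groups on steroids and other carbonyl compounds. Members were the probes of a rat expression array whose gene name, in the scanner files, begins with Akr1c. There were 10 such probes for 9 genes, of 30367 probes and 26214 gene names on the array. The genes were Akr1c1, Akr1c2, Akr1c3, Akr1c12, Akr1c12l1, Akr1c13, Akr1c14, Akr1c19 and Akr1cl, and only Akr1c3 had more than 1 probe.

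Ovaries were taken from female rats aged 28 days, and total RNA was measured on 1-colour Agilent arrays. The 4 samples labelled PMSG had received 50 IU of PMSG (pregnant mare serum gonadotropin, which acts mainly like follicle-stimulating hormone and in part like luteinising hormone) under the skin at 26 days, in a volume of 0.2 ml of phosphate buffer with albumin. The 4 labelled control had received the buffer alone, and both groups were sampled 48 h later. No strain is named, and all rats were sexually immature. Nothing in the labels says whether an array held 1 animal or several. The p-values therefore set the difference between labels against the spread between samples of the same label, which may not be that between animals.

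Progesterone is made from cholesterol and loses its activity when its ketone groups are reduced. Rat Akr1c3, also listed under the synonym Akr1c18, encodes 20α-hydroxysteroid dehydrogenase, the ovarian enzyme that turns progesterone into 20α-dihydroprogesterone. It is known for being held low by prolactin in the functional corpus luteum and for rising when the corpus luteum regresses. Akr1c14, also listed as Akr1c9, encodes 3α-hydroxysteroid dehydrogenase, which acts on 5α-reduced products of progesterone and of androgens. Akr1c1 is listed under the synonym Hsd17b5, a 17β-hydroxysteroid dehydrogenase that acts on androgens and oestrogens.

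The family is a set of similar neighbouring genes, so the probe sequences bear on which member a value belongs to. The probes of the gene that differed most, Akr1c3, are shown with those of a member whose levels overlapped between the labels (Akr1c12l1) and of a dim member (Akr1c2). All are 60 bases long, written 5′ to 3′ as the array design gives them.
Akr1c3 probe A_43_P13282: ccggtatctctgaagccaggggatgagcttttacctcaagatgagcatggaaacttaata
Akr1c3 probe A_64_P042127: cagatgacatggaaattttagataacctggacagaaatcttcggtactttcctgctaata
Akr1c12l1 probe A_44_P156850: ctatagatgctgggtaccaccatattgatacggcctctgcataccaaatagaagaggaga
Akr1c2 probe A_44_P323773: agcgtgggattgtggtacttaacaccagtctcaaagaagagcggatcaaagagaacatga

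The longest identical stretch shared by any pair of the 10 member probes was 9 bases, and no other probe of the array carried the same sequence as a member. The Akr1c3 probes begin at positions 399 and 913 of the transcript NM_138510 in the array's annotation. A_43_P13282 spans 1033 bases of the genome for its 60 bases (chromosome 17, 77276610 to 77277642, rn4, plus strand), so it crosses a splice junction. A_64_P042127 lies at 77284120 to 77284179. No transcript sequences were used here, so matches of a probe to other transcripts of the family with mismatches were not tested, and which member each probe measured is uncertain to that extent.

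Names differ between the array and RefSeq (GRCr8 table). The array's Akr1c12 (NM_001170342) is now Akr1c13, the array's Akr1c13 (NM_001014240) is now Akr1c12, and the array's Akr1cl (NM_001109900) is now Akr1c15. Array names are kept below.

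Values are log2 processed signal minus the array's own 75th percentile of log2 signal, so 0 is the level of a fairly bright probe on that array. This percentile lay at signals of 769 to 1103, between 80.8% and 84.6% of probes were well above background on each array, and the dimmest spot called so had a signal of 9.89 to 13.7. Arrays of the same label correlated at 0.977 to 0.993 across probes and arrays of different labels at 0.960 to 0.972. Ovarian markers were present on all 8 arrays, among them Inha (inhibin alpha, a granulosa cell product, from 5.81 to 6.64). The sample titles alone give the label of an array. Lhcgr, Star and Cyp11a1, genes that gonadotropin is generally known to raise, were lower in the arrays labelled PMSG (values below), so every direction below is tied to the labels and not to the hormone.

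Akr1c3 was high on the 4 arrays labelled control and close to or below the detection limit on the 4 labelled PMSG. With the spliced probe A_43_P13282 the levels were 0.16, 0.64, 0.49 and 1.19 in control 1 to 4 and -8.34, -8.25, -7.36 and -8.30 in PMSG 1 to 4. The unscaled signals were 1166, 1647, 1412 and 2520 against 3.0, 3.4, 4.7 and 3.4. No PMSG value of this probe was well above background, and the groups lay 7.52 apart at their nearest points.

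The other Akr1c3 probe, A_64_P042127, gave 1.16, 1.68, 1.38 and 2.10 in the arrays labelled control and -6.65, -6.34, -6.81 and -7.75 in those labelled PMSG. Its signals ran from 2337 to 4716 in the former and from 5.0 to 12.7 in the latter. PMSG 2 was the only array of its label on which this probe was well above background. Among the arrays labelled control both probes gave the order 1, 3, 2, 4 from lowest to highest.

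The fold between the labels has only a lower bound, because the dim side is at background. In the arrays labelled control Akr1c3 was higher by at least 130.0-fold with A_43_P13282 and by at least 247-fold with A_64_P042127, taking for each dim array the higher of its dimmest spot well above background and the probe's own signal. The measured log2 differences were -8.68 (SE 0.28) and -8.47 (SE 0.32), both with limma adjusted p = 1.16e-05 over 25303 probes, from means of 0.62 ± 0.43 (SD, n = 4) against -8.06 ± 0.47 and of 1.58 ± 0.40 against -6.89 ± 0.61. Each probe cleared background on all 4 control-labelled arrays and on only 0 (A_43_P13282) or 1 (A_64_P042127) of the others, so they entered the test through the group where they are high, and these differences, SEs and p-values are computed against background signal. Normexp background correction, which adds an offset to every signal, lowered their size to -4.57 and -5.44.

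Both slide rows, each holding 2 arrays of either label, gave the same picture for Akr1c3, at -8.72 and -8.65 with A_43_P13282 and at -8.46 and -8.47 with A_64_P042127. The ovary was measured whole, so fewer cells that express a gene and less of its RNA per cell cannot be told apart.

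**Figure D1:**
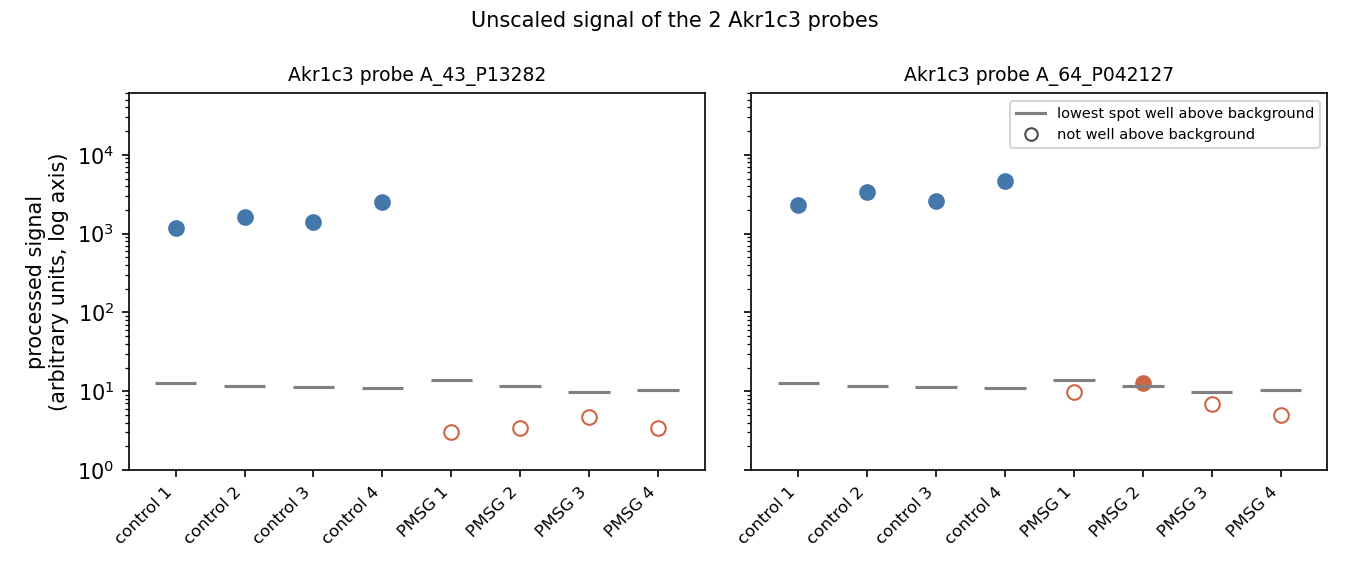
Unscaled processed signal (log axis, arbitrary units) of both Akr1c3 probes on the 4 arrays labelled control (blue) and the 4 labelled PMSG (orange); open points are not well above background and grey bars mark each array's dimmest spot that is. Control signals lie between 1166 and 4716, and only PMSG 2 with A_64_P042127 (12.7) lies above its grey bar.

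Of the 10 Akr1c probes, 8 (for 7 genes) were well above background on at least 4 arrays and were tested, and 5 were so on all 8 arrays. In limma, 6 of the 8 passed an adjusted p of 0.05, against 34.2% of all 25303 probes tested. The 4 that were higher in arrays labelled PMSG belonged to 4 genes (background 17.6%), and the 2 that were lower were both Akr1c3 (background 16.6%). The groups did not overlap for 6 of the 8, against 36.6% of all probes. Both Akr1c3 probes and Akr1c12 entered the test through the group where they are high. Their calls and their lack of overlap are therefore set in part by background signal and by the filter. The median log2 difference of the 8 was 0.45, against 0.11 for all probes. With so few members, and Akr1c3 counted with 2 probes, these counts describe the family and rest on the single genes that follow.

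Akr1c19, a reductase of the same subfamily, was higher in arrays labelled PMSG. Its levels were -2.22, -2.23, -2.24 and -2.03 in control 1 to 4 and -0.08, -0.11, -0.62 and -0.31 in PMSG 1 to 4. Every PMSG value exceeded every control value, by at least 1.41. The log2 difference was 1.90 (limma SE 0.14, adjusted p = 8.89e-05), a 3.74-fold higher level. The probe, A_44_P1040926, lies on chromosome 17 at 77183174 to 77183233.

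Akr1cl, the gene now called Akr1c15, was likewise higher in arrays labelled PMSG. It stood at -1.01, -0.96, -1.08 and -1.49 in the arrays labelled control and at 0.17, -0.19, 0.24 and 0.25 in those labelled PMSG, again without overlap. The log2 difference was 1.25 (limma SE 0.16, adjusted p = 7.07e-04), or 2.38-fold. Its probe, A_44_P1021630 (77341377 to 77341436, minus strand), is the last of the cluster.

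Akr1c14, the 3α-hydroxysteroid dehydrogenase, showed a smaller difference in the same direction. Levels were -1.22, -1.14, -1.32 and -0.98 in control 1 to 4 and -0.68, -0.16, -0.79 and -0.65 in PMSG 1 to 4. The groups did not overlap, but control 4 and PMSG 3 were only 0.19 apart. The log2 difference was 0.60 (limma SE 0.15, adjusted p = 0.0188), or 1.51-fold. This call was lost when arrays were centred on their median (0.43, adjusted p = 0.132), without control 1 (0.58, adjusted p = 0.0505) and without control 3 (0.54, adjusted p = 0.0519). The probe has 10 spots per array, of which 6 of the 80 spot values over the 8 arrays were outliers and left out, at 77317088 to 77317147, minus strand.

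The array's Akr1c12, now Akr1c13, was dim in both groups and higher in the arrays labelled PMSG. Its levels were -6.64, -7.33, -6.04 and -7.79 in control 1 to 4 and -5.10, -5.31, -5.35 and -4.30 in PMSG 1 to 4. On 2 control-labelled and all 4 PMSG-labelled arrays it was well above background. The log2 difference was 1.94 (limma SE 0.40, adjusted p = 0.00675), and as a bound the PMSG-labelled level exceeded the other at least 2.60-fold. Its 4 PMSG-labelled arrays alone were enough to enter the test, the group where it is high. The difference, SE and p-value are therefore computed in part against background signal. Normexp correction reduced the log2 difference to 0.51. The replicate spots of this probe differed by an SD of up to 1.89 on a single array, the largest among members with more than 1 spot.

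The remaining tested members did not pass the threshold. The array's Akr1c13, now Akr1c12, stood at -1.89, -1.87, -2.15 and -1.67 in the arrays labelled control and at -1.19, -1.51, -1.92 and -1.76 in those labelled PMSG, and differed by a log2 value of 0.30 (limma SE 0.18, adjusted p = 0.223). Akr1c12l1 stood at -5.18, -4.18, -4.55 and -5.01 against -4.46, -4.49, -4.41 and -5.65, with a log2 difference of -0.02 (limma SE 0.33, adjusted p = 0.967). The values of both genes overlapped between the labels, and the sign for Akr1c12l1 changed with the scaling.

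Akr1c2 and Akr1c1 were too dim to be tested. Akr1c2 was well above background on control 2 and control 3 only. Its levels were -7.43, -6.61, -6.32 and -7.37 in the arrays labelled control and -8.34, -8.24, -7.73 and -8.77 in those labelled PMSG, where all 4 were not well above background. Akr1c1, the 17β-hydroxysteroid dehydrogenase, was not well above background on any of the 8 arrays, with signals of 2.1 to 8.1.

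**Figure D2:**
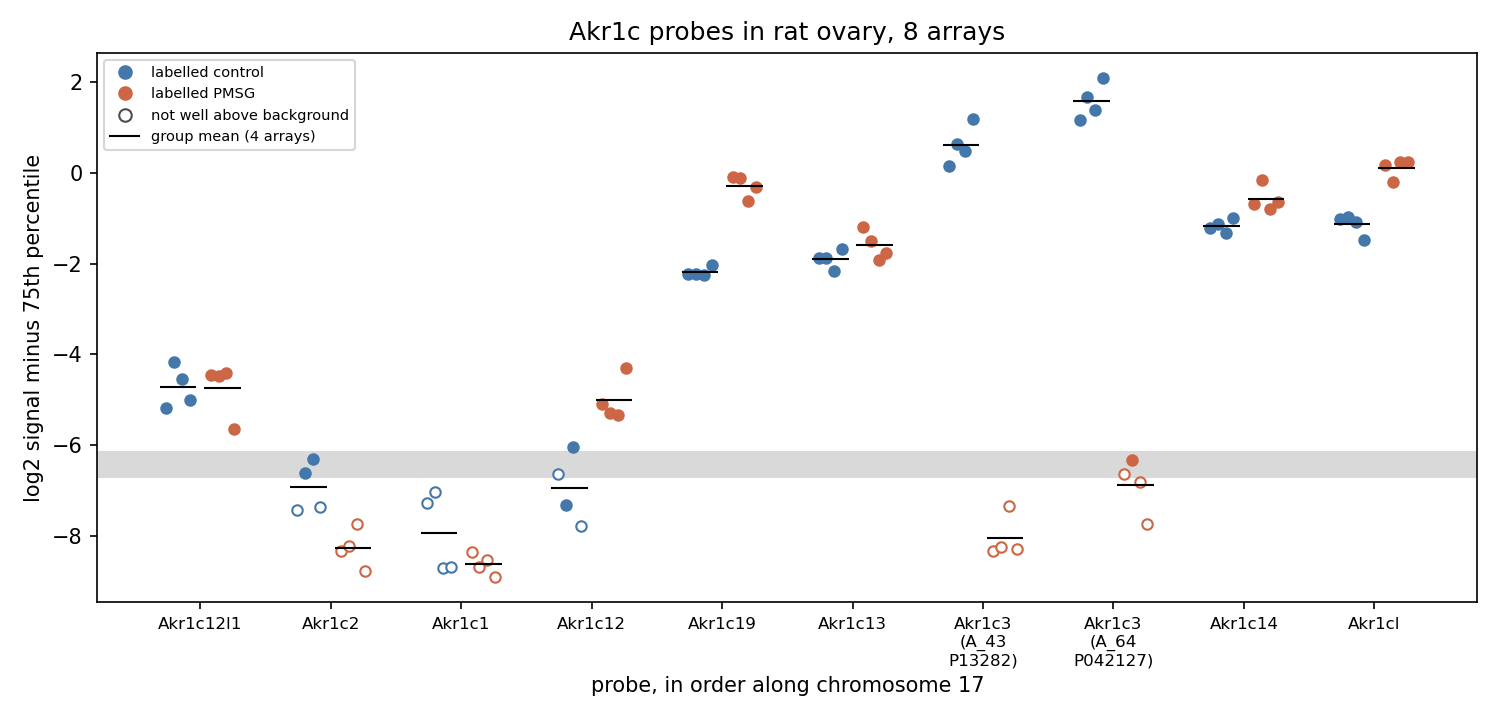
Level of each Akr1c probe (log2 signal minus the array's 75th percentile) on the 4 arrays labelled control (blue) and the 4 labelled PMSG (orange), in order along chromosome 17, with black bars for group means; open points are not well above background and the grey band spans the dimmest spots that are, over the 8 arrays. Both Akr1c3 probes fall from positive control values to values near or under the band, while Akr1c19, Akr1c14 and Akr1cl lie higher in arrays labelled PMSG.

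All member probes lie within 370 kb of chromosome 17 (76971296 to 77341436, rn4). Among the members past the threshold the direction changed along this stretch. Akr1c12 and Akr1c19 (1.94 and 1.90) lie before Akr1c3 (-8.68 and -8.47), and Akr1c14 and Akr1cl (0.60 and 1.25) lie after it. The last Akr1c3 probe is 32.9 kb from the Akr1c14 probe, and the first is 72.9 kb from the Akr1c13 probe on the other side. Within 1 Mb on either side of the outermost members the array names 19 other genes or transcripts, of which 16 were tested. By the same limma threshold 2 of the 16 were higher and 5 lower on the PMSG side (17.6% and 16.6% of all probes), and their log2 differences ran from -1.67 for Calml3 to 2.31 for Tubal3, both chosen as the extremes. The 5 include 2 unnamed transcripts inside the cluster, between the Akr1c12l1 and Akr1c2 probes, whose own probes overlap in position. They were ENSRNOT00000043733 (-0.80, limma adjusted p = 0.00393) and A_64_P085902 (-0.61, limma adjusted p = 0.0235). Even the lower bounds of Akr1c3 exceeded in size the differences of its tested neighbours within this window. RGD1564865, listed in RefSeq as AKR1C3l1, was not well above background on any array.

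**Figure D3:**
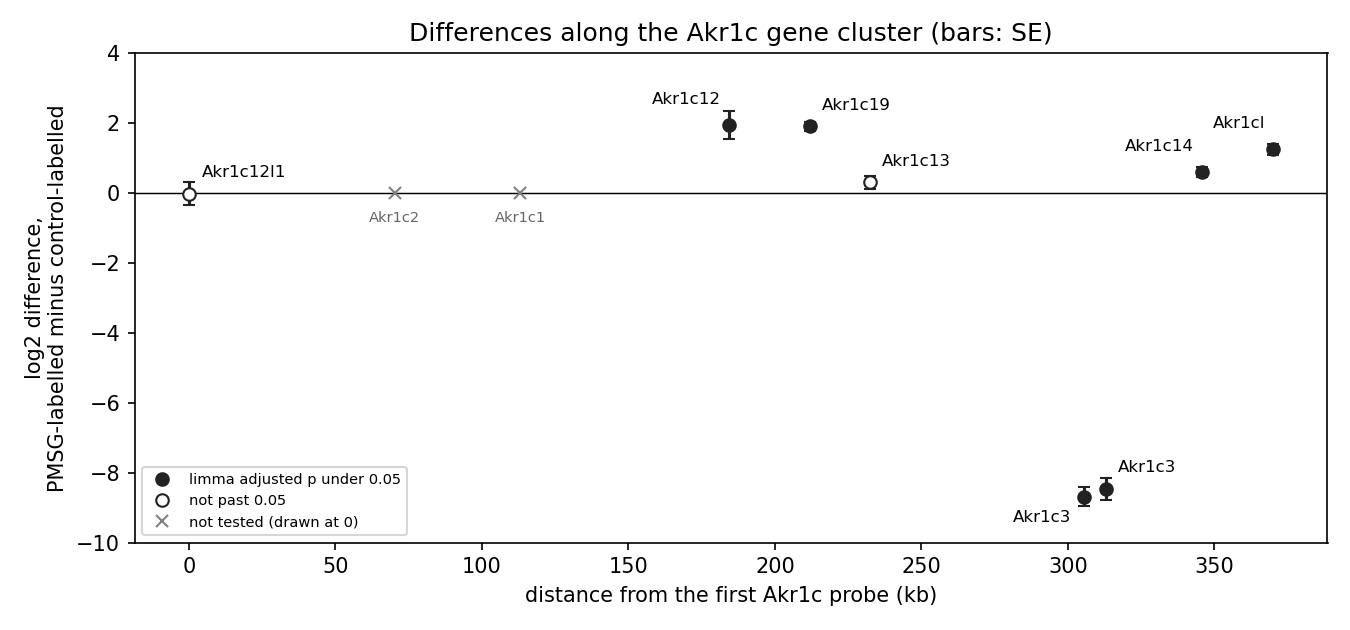
Log2 difference of each Akr1c probe (PMSG-labelled minus control-labelled arrays, n = 4 each, bars are SE) against its distance in kb from the first member probe. Filled points passed a limma adjusted p of 0.05 and crosses were not tested. Both Akr1c3 probes lie near -8.5 on the axis, and the other filled points, on either side, lie above 0.

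The aldo-keto reductases outside the AKR1C subfamily did not share one direction. Of 9 such genes 8 were tested with limma, 1 was called higher and 2 lower in the PMSG-labelled arrays. Over all probes 34.2% were called, 17.6% higher and 16.6% lower, so the total of 3 is near the background. The median log2 difference of the 8 was -0.21, against 0.11 for all probes. Akr1b8 fell from 4.02 ± 0.17 (SD, n = 4) to 2.55 ± 0.45, a log2 difference of -1.47 (limma SE 0.22, adjusted p = 0.00161). Akr1a1, which encodes aldehyde reductase, had a log2 difference of -0.70 (limma SE 0.08, adjusted p = 5.95e-04). Akr1b1, which encodes aldose reductase, was higher by 0.68 (limma SE 0.21, adjusted p = 0.0381), a call lost under 9 of 19 alternative settings. Akr1e2, whose probe lies inside the Akr1c cluster, differed by -0.33 (limma SE 0.12, adjusted p = 0.0602), Akr1b10 by 0.68 and Akr1b7 by -0.28, and none of these passed. The values of Akr1e2 did not overlap between the labels, and it did pass under 5 of 19 alternative settings. Akr1d1, the 5β-reductase, was well above background on 1 of 8 arrays and was not tested.

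Other enzymes that can act on progesterone or its products were listed as 11 genes. Of these, 8 were tested with limma and 1 passed, against 34.2% of all probes. Cbr1, a carbonyl reductase, was lower, at 5.33, 5.34, 5.46 and 5.52 in the arrays labelled control and 3.72, 3.95, 3.71 and 3.38 in those labelled PMSG (log2 difference -1.72, limma SE 0.13, adjusted p = 1.11e-04). The values of its groups did not overlap. Srd5a1, the 5α-reductase that provides the substrates of Akr1c14, stood at -0.44 to -0.41 in arrays labelled control and at 0.09, 0.74, -0.28 and -0.09 in PMSG 1 to 4. Its groups did not overlap, yet its log2 difference of 0.54 (SE 0.20) did not pass (limma adjusted p = 0.0753). Under 3 of 19 alternative settings it did. Srd5a3, of the same enzyme family and chosen after its value was seen, went the other way without overlap (-0.37, limma adjusted p = 0.0525). Hsd17b2, which oxidises 20α-dihydroprogesterone back to progesterone, differed by 0.80 (limma SE 0.31, adjusted p = 0.0809), and Cyp21a1 by 0.65 (limma SE 0.31, adjusted p = 0.139). Hsd17b2 did pass under 3 and Cyp21a1 under 2 of 19 alternative settings, among them the fit without PMSG 4. The median of the 8 was -0.10.

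Genes of progesterone synthesis were lower together with Akr1c3. Of the 11 listed genes Hsd3b2 shared the probe of Hsd3b6. Of the 10 tested 9 were lower in arrays labelled PMSG by limma, against 16.6% of all probes, with a median log2 difference of -1.32. Cyp11a1, the side-chain cleavage enzyme that makes pregnenolone, differed by -3.36 (limma SE 0.31, adjusted p = 2.32e-04). Star, which brings cholesterol into mitochondria, differed by -2.75 (limma SE 0.54, adjusted p = 0.00541). It stood at 4.68 to 4.92 in arrays labelled control and at 1.92, 3.81, 1.42 and 0.99 in PMSG 1 to 4, so PMSG 2 lay nearest the controls. Scarb1, the receptor for HDL cholesterol, differed by -1.83, and Hsd3b6 by -1.69. The tenth gene was Hsd3b1, which encodes the enzyme that turns pregnenolone into progesterone. It stood at 7.07, 7.04, 6.93 and 6.85 in the arrays labelled control and at 7.12, 7.18, 7.17 and 6.69 in those labelled PMSG, and differed by a log2 value of 0.07 (limma SE 0.13, adjusted p = 0.719) whose sign turned under quantile normalization (-0.14) and median centring (-0.10).

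Genes of signals known to act on the 20α-hydroxysteroid dehydrogenase gene were mixed. Of 16 tested with limma, 5 were lower and 1 was higher on the PMSG side, with a median of -0.30. Over all probes 34.2% were called, 16.6% lower and 17.6% higher, so the total of 6 is near the background. Among the receptors, Ptgfr, for prostaglandin F2α, stood at -4.96, -4.74, -4.85 and -4.44 in the arrays labelled control and was not well above background on any labelled PMSG. The control-labelled arrays exceeded the others at least 3.14-fold (limma adjusted p = 4.09e-05, computed against background signal, since the gene entered the test through its control-labelled arrays alone). Prlr, the prolactin receptor, stood at -0.32, -0.77, -0.67 and -0.76 against -2.50, -2.84, -2.35 and -3.42, a log2 difference of -2.15 (limma SE 0.24, adjusted p = 4.35e-04). Lhcgr, the luteinising hormone receptor, differed by -1.93 (limma SE 0.27, adjusted p = 0.00114). The arrays labelled PMSG were low for these 3 receptors and for Akr1c3. A further receptor of the list, Pgr, overlapped between the labels and did not pass (-0.60, limma adjusted p = 0.261). Of the 16 genes, 10 were not called.

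Among the kinases and transcription factors of that list, Stat5b, which carries the prolactin signal, differed by -1.37 (limma SE 0.15, adjusted p = 3.85e-04; named after its value was seen) and Junb, a part of AP-1, by -1.40 (limma SE 0.25, adjusted p = 0.00336). The other AP-1 genes of the list did not pass. They were Jund (0.13, limma adjusted p = 0.489) and Fosb (0.05, limma adjusted p = 0.861), both named after their values were seen. Nr4a1, an orphan nuclear receptor known to raise the dehydrogenase gene after prostaglandin F2α, stood at 2.15, 1.97, 2.02 and 2.59 in the arrays labelled control and at 0.27, 2.37, -0.06 and 0.41 in those labelled PMSG. PMSG 2 lay within the control range, and the log2 difference of -1.44 (SE 0.49) did not pass (limma adjusted p = 0.0536), though it did under 6 of 19 alternative settings. Stat5a, the close relative of Stat5b, differed by -0.08 (limma adjusted p = 0.798). Sp1 was higher by 0.34 (limma SE 0.11, adjusted p = 0.0400), a call lost under 10 of 19 alternative settings. Pgr, the progesterone receptor (-0.60), and Jak2 (-0.35) did not pass.

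**Figure D4:**
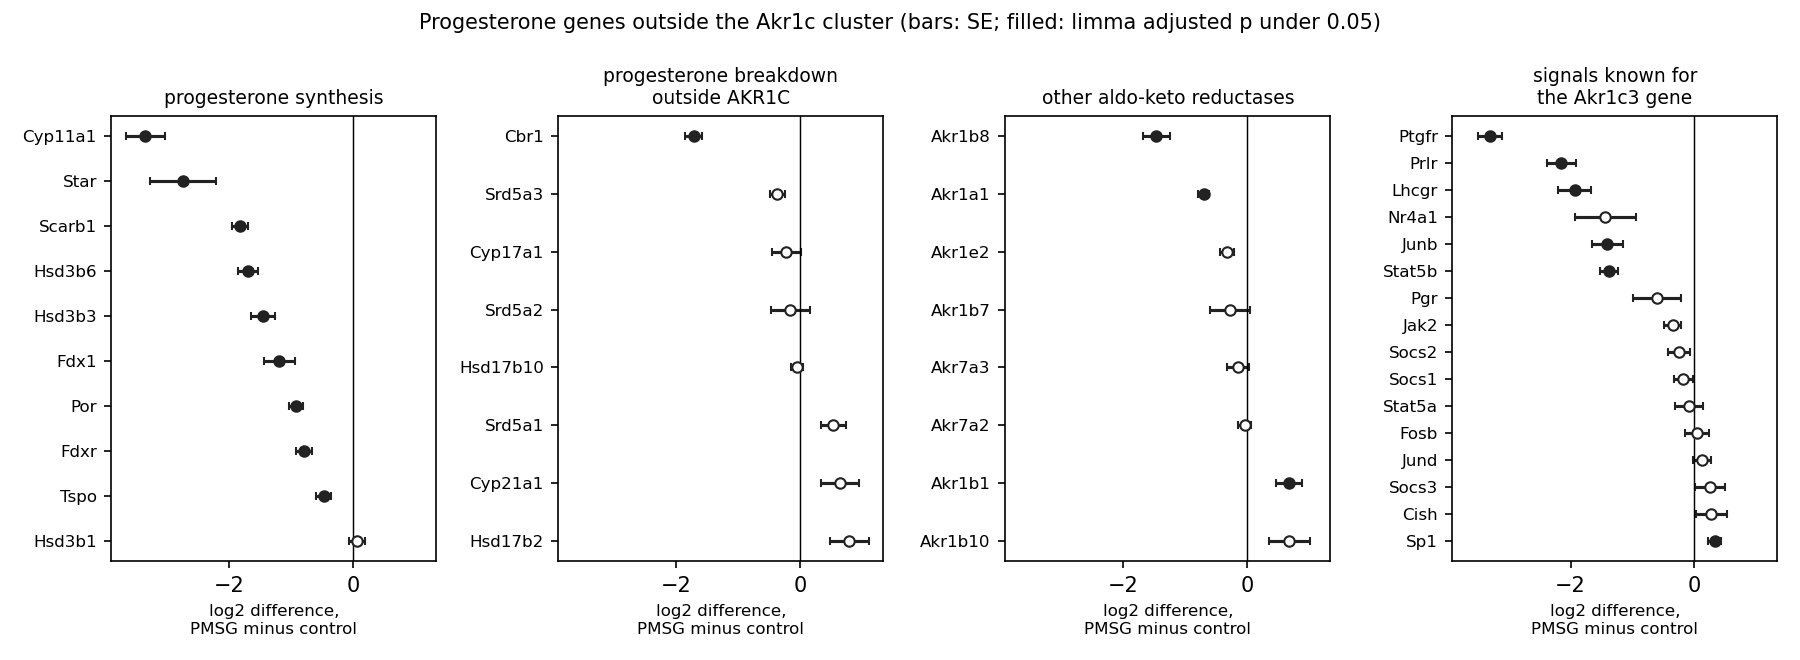
Log2 difference (PMSG-labelled minus control-labelled arrays, n = 4 each, bars are SE) of the tested genes of progesterone synthesis, of its breakdown outside AKR1C, of the other aldo-keto reductases and of signals known for the Akr1c3 gene; filled points passed a limma adjusted p of 0.05. Of the 10 synthesis genes 9 lie left of 0 and passed, and Cbr1 is the only filled point in the breakdown panel. Over all probes 16.6% were called lower and 17.6% higher.

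Markers of luteal cells moved with Akr1c3. Of 5 listed, 3 of which are also in the signal list, 4 were lower and 1, Sfrp4 (0.89), was higher in arrays labelled PMSG, and their mean level was -2.21 to -1.96 in arrays labelled control and -4.03 to -3.35 in those labelled PMSG. All 4 markers of oviduct epithelium were higher in arrays labelled PMSG (Muc1, Cdh16, Foxj1 and Pax8), with a mean level of -2.04 to -1.46 against 0.07 to 0.68. Markers of oocytes (3 of 3) and leukocytes (3 of 3, of which the Cd68 call was lost under 9 of 19 alternative settings) and single markers of granulosa (Amh, 1 of 4) and theca cells (Insl3, 1 of 2) were also higher. The other granulosa and theca markers did not pass and were mixed in sign. Inha (-0.39) and Cyp17a1 (-0.22) were below 0, and Fshr (0.34) and Foxl2 (0.19) above it. Markers of liver, an organ where several AKR1C members are abundant, were also read in these ovary samples. Of these, Ttr and Apoa1 were lower in arrays labelled PMSG (-3.24 and -2.27). Alb differed by 1.38 without passing (limma adjusted p = 0.311), and by 0.42 to 2.02 with 1 array left out. Alas2, 1 of 3 red blood cell markers, was lower, and the 4 adipocyte markers differed by 0.63 to 1.20 without passing. With 1 array left out, Cidec ranged from 0.13 to 1.55 and Retn from 0.50 to 1.72. Over all probes 17.6% were called higher and 16.6% lower, so a single call within so short a marker list is not set apart from the background. The part of these cell types in the AKR1C values was not tested.

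By the distance between profiles, the genes most like Akr1c3 were Fabp6, Ereg, the transcript ENSRNOT00000010151, Runx2 and Il1rl1. The measure was the root-mean-square distance over the 8 arrays between centred log2 levels, taking the brighter Akr1c3 probe as reference and 1 probe per gene. It was 0.96 for Fabp6 (an ileal bile acid binding protein), 1.21 for Ereg (epiregulin, an EGF family ligand), 1.60 for the unnamed transcript, 1.66 for Runx2 (a transcription factor) and 1.96 for Il1rl1 (the interleukin 33 receptor). The other Akr1c3 probe lay at 0.46. Of the 4 PMSG-labelled arrays, Ereg and the unnamed transcript cleared background on 0 and the reference probe on 1, so these distances and their order are set in part by background signal. All 5 were lower in arrays labelled PMSG, as the measure requires. Fabp6 stood at 3.99 to 4.72 in arrays labelled control and at -3.37 to -1.23 in those labelled PMSG.

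The promoter window of Akr1c3 is shown because the list above holds factors known to act on this gene. The 250 bases before its start site (GRCr8, chr17:71020634-71020883, plus strand, from RefSeq's table) read as follows, with a match to the Sp1 letters in capitals.
Akr1c3 upstream: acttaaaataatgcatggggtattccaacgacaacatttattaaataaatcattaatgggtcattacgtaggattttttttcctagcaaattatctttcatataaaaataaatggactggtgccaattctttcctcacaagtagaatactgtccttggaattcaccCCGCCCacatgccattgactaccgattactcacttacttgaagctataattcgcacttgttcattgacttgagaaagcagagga

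Windows of 300 bases (250 before to 50 after the start) were found for 8 of the 9 member genes, and 5 motifs were searched on both strands. The Sp1 letters GGGCGG were in 2 of the 8 (Akr1c3, at -84 on the reverse strand, and Akr1cl) and in 33.1% of 33469 promoters. The STAT5 letters TTCNNNGAA were in 2 of 8 (Akr1c12l1 and Akr1c2) and in 8.87% of all, and the AP-1 letters TGANTCA in 1 of 8 (Akr1c2) and in 7.33%. The NBRE letters AAAGGTCA, the form known to bind Nr4a1, and the NR5A letters CAAGGTCA were in 0 of 8, and in 1.43% and 1.52% of all promoters. A match or its lack describes only these letters in these windows.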

How the data were processed

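Ovary RNA was measured on 8 one-colour arrays, 4 labelled control and 4 labelled PMSG. Reverse transcription started from 500 ng of RNA with an oligo-dT primer and the product was labelled with Cy3, per the labels' protocols. Per the file headers, the deposited intensity values came from Agilent Feature Extraction 11.5.1.1, with probe coordinates on rn4. A deposited table of log2 values, which correlate with the scanner signals minus each array's 75th percentile at 0.998 or more, with median offsets of 0.004 to 0.015, served as an alternative.

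Control and outlier spots were left out, and log2 signals of a probe's spots were averaged (30350 complete probes). Probes well above background (at least 0.5 of their spots) on at least 4 of 8 arrays were tested: 25303. Labels were compared in R 4.3.3 by limma 3.58.1 (lmFit and eBayes without covariates). P-values were adjusted over the 25303 probes by Benjamini and Hochberg's method, and 0.05 was the threshold. The procedure was checked on simulated data. List genes had 1 probe each, the brightest over all arrays. Named list genes were the largest 4 past the threshold per list and direction and up to 3 that missed it. The members and lists were chosen with earlier results of these data known. The number of arrays limits the precision. All arrays were on 1 slide in 2 rows. Alternatives covered scaling, background correction, filters, weights, blocks and single arrays left out.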

Additional observations from a re-analysis of the deposited data

Results flagged for a closer look

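In groups of 4 arrays, the highest or lowest value stood apart from the rest, by a gap above the critical value of Dixon's test, in 6 of 132 groups examined, where chance gives about 1 in 20 (6.6). Among the members, Akr1c12l1 was at -5.65 on PMSG 4 against -4.49 to -4.41 on the other arrays of that label. Akr1c19 was at -2.03 on control 4 against -2.24 to -2.22. Akr1c3 with A_43_P13282 was at -7.36 on PMSG 3 against -8.34 to -8.25, and none of these 4 values was well above background. Outside the family, Cdh16 was at -1.31 on control 4 against -0.72 to -0.65, Insl3 at 2.49 on PMSG 4 against 3.50 to 3.59, and Hsd3b1 at 6.69 on PMSG 4 against 7.12 to 7.18.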

How the results depend on the processing

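Under 19 alternatives, or the 18 that could be run where a probe was too dim, both Akr1c3 probes, Akr1c12, Akr1c19, Akr1cl and Akr1c13 kept their direction and their side of the threshold. Akr1c3 ranged from -8.92 to -4.57 and from -8.65 to -5.44, with the smallest sizes under normexp correction. Akr1c14 fell short under median centring (0.43), and its values with 1 array left out ran from 0.46 to 0.67. Akr1c12l1, near 0, turned positive with the 75th percentile taken over probes above background on all arrays (0.024), with normexp (0.077) and with array weights (0.12), and ran from -0.17 to 0.28 with 1 array left out. When only probes above background on all arrays were tested, the count of Akr1c probes called lower was 0 and 3 were called higher, because Akr1c3 and Akr1c12 were not tested there. Without a filter 3 probes were lower, with Akr1c2 added.

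Of 966 refits of 51 other named genes, 904 kept direction and call, 28 lost the call, 29 gained it and 5 changed sign: Fshr without control 3 (leave-one-out range -0.018 to 0.56), Cyp17a1 and Akr1b7 without PMSG 4 (ranges -0.34 to 0.0093 and -0.49 to 0.034), and Hsd3b1 under quantile normalization (-0.14) and median centring (-0.10). The cause was not tested. Median centring called 2914 probes higher and 5534 lower, against 4452 and 4206, and moved the median difference of all probes from 0.11 to -0.05. Without PMSG 4, 61.3% of called probes were higher, against 51.4%.

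Replicate numbers are not stated to pair samples, and deviations of same-numbered arrays correlated at -0.02 to 0.18. With the replicate block 7346 probes were called against 8658, and the Akr1c counts stayed at 4 higher and 2 lower (Akr1c3 adjusted p = 0.00161 and 0.00200 in limma). With this block Cd68, Akr1b1 and Sp1 lost their call and Ahsp gained one, and no other named gene changed its call. Dim signals limit Akr1c1, Akr1c2 and Akr1c12, and the folds of Akr1c3 are lower bounds.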
